A study of Mus musculus with 6 samples.

Results

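The genes described here handle iron and heme in macrophages: Hmox1, Blvra and Blvrb of heme breakdown, Fth1 of iron storage, Slc40a1 and Cp of iron export, Tfrc of iron uptake, and the metal transporters Slc11a1 and Slc11a2. They are 9 of the 22180 genes that the arrays measured on probe sets with exactly 1 gene symbol, they were listed by name, and each was read by 1 probe set. Macrophages that had entered heart allografts (BALB/c hearts in C57BL/6 recipients) were sorted by flow cytometry on day 6 after transplantation. For 3 samples the recipients had been given mTORi-HDL at 5 mg/kg on days 0, 2 and 5. For the remaining 3 they had no treatment and rejected the graft. mTORi-HDL is a nanoparticle built like high-density lipoprotein that carries an inhibitor of the kinase mTOR. All 6 samples came from allografts, with no ungrafted heart and no group given the particle without its inhibitor, so inhibitor and carrier cannot be told apart. Neither the sort markers nor the animals' ages, nor whether a sample was 1 recipient or a pool, are given in the sources used here, so p-values measure the spread between samples, which may be technical.

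Macrophages take up iron mainly by engulfing aged or damaged red cells. Heme oxygenase-1, encoded by Hmox1, opens the heme ring and releases iron, carbon monoxide and biliverdin, which biliverdin reductases turn into bilirubin. The iron is then stored in ferritin, whose heavy chain is encoded by Fth1, or leaves the cell through ferroportin, encoded by Slc40a1. Transferrin-bound iron enters through the transferrin receptor, encoded by Tfrc. Iron regulatory proteins bind the mRNAs of ferritin, ferroportin and the transferrin receptor when iron is scarce. This blocks translation of ferritin and ferroportin, which an array does not measure, and stabilises the mRNA of the transferrin receptor.

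None of the 9 genes differed between treated and untreated sorted cells beyond the spread between samples. Over all arrays 4 were higher and 5 lower on average in the treated group, with a median log2 fold change (mTORi-HDL minus untreated) of -0.04, against 0.08 over all genes. In limma's test, with Benjamini-Hochberg adjustment over all genes, 0 of the 9 passed an adjusted p of 0.05, as did 0 of all 22180 genes (0%). At an unadjusted p under 0.05 there were again 0 of the 9, where 4.64% of all genes lay. The treated and untreated values overlapped for all 9, while they were fully apart for 10.9% of all genes. The adjusted p of the 9 genes lay between 0.890 and 0.985. The 3 largest differences, those of Tfrc, Blvra and Slc40a1, were smaller without 1 treated array, mTORi-HDL 1, which stood apart from the others on all genes.

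That array correlated with the rest at r = 0.708 to 0.741 across probe sets, and the SD over its probe sets was 1.68, where the other arrays had 2.04 to 2.09. Its values of all genes, set against the mean of the other arrays, had a slope of 0.58, so genes bright elsewhere read lower on it and dim genes read higher, except near the top of the range. The results of the 9 genes are therefore given with and without it. Without it the median log2 fold change of the 9 genes was 0.16, against -0.03 over all genes, with 6 higher and 3 lower. In limma's test 0 of the 9 then passed an adjusted p of 0.05 (0% of all genes), and at an unadjusted p under 0.05 there were 0 as well (6.97% of all genes). The groups of 2 and 3 arrays again overlapped for all 9, where 22.3% of all genes were apart. With 3 arrays a group, the 95% confidence intervals of the log2 fold changes were wide. Over all arrays they ran from -3.42 to 0.38 for Tfrc, from -2.06 to 0.37 for Blvra and from -0.44 to 1.63 for Slc40a1. Changes of any size within these intervals thus remain possible, and the absence of a passing gene does not show the absence of a change. The intervals of all 9 genes are drawn in the plot of log2 fold changes with confidence intervals.

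**Figure D1:**
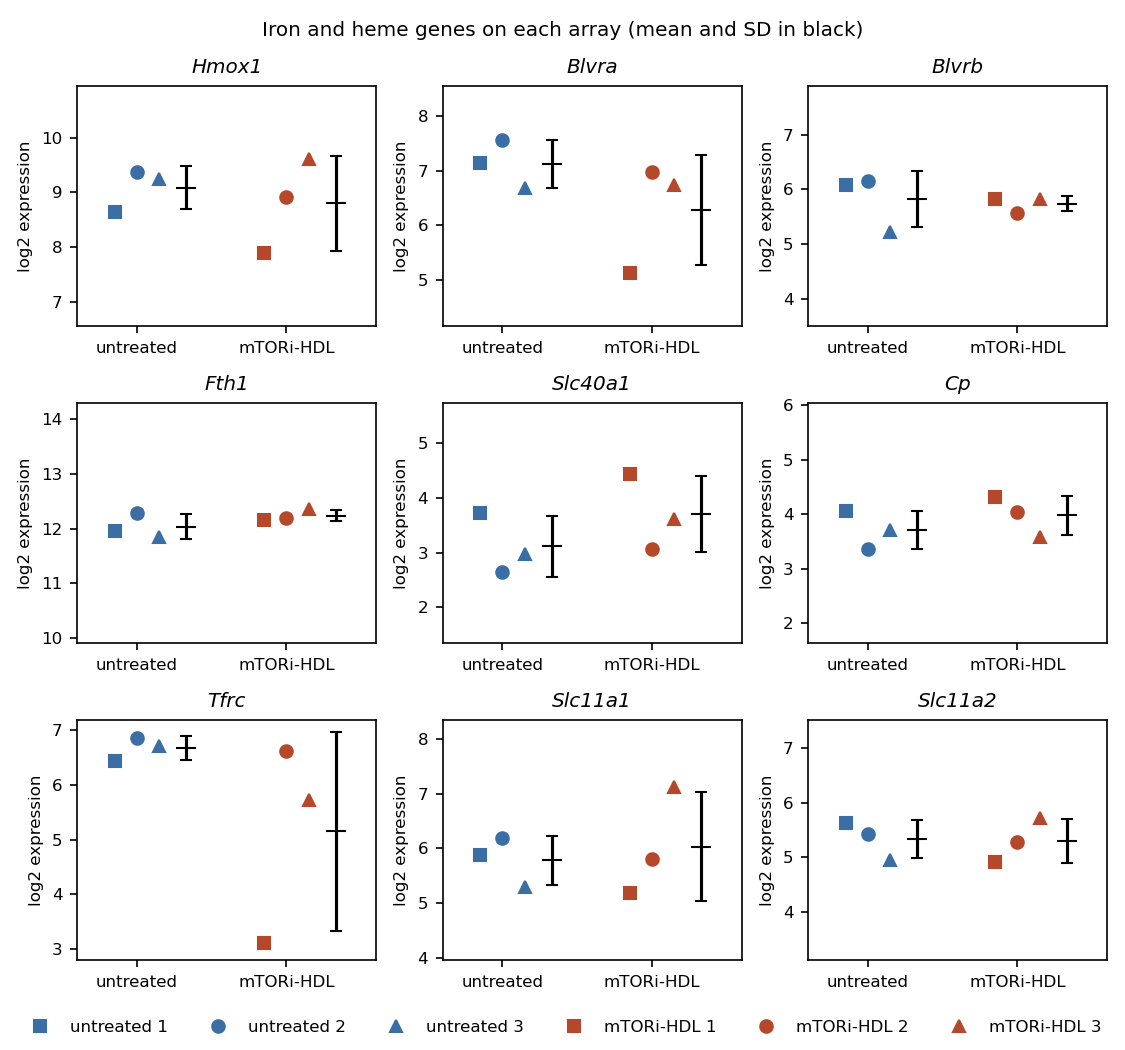
Log2 expression of the 9 genes on each array, untreated in blue and mTORi-HDL in red, with the mean and SD (n = 3) in black; every panel spans the same number of log2 units. The groups overlap in each panel, and the square of mTORi-HDL 1 lies lowest for Tfrc at 3.11 and for Blvra at 5.13.

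The 250 bases before the transcription start of Blvra and of Tfrc are shown first, because these 2 genes had the largest mean differences between the groups, although neither passed the test. The sequences are from RefSeq (GRCm38.p6), with 10 start sites matched for 6 of the 9 genes. Hmox1, Slc40a1 and Slc11a2 were not used here. Each is written 5′ to 3′ on the plus strand, and capitals mark the core of an antioxidant response element (TGACNNNGC, either strand), the site through which NRF2 and BACH1 act on heme and iron genes.
Blvra, chr2:127070407-127070656: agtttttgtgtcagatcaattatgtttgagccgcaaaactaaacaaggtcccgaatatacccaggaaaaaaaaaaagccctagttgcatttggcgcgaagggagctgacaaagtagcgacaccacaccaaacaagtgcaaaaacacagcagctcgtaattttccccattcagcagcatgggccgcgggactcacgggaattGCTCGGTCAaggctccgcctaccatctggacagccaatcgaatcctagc
Tfrc, chr16:32608646-32608895: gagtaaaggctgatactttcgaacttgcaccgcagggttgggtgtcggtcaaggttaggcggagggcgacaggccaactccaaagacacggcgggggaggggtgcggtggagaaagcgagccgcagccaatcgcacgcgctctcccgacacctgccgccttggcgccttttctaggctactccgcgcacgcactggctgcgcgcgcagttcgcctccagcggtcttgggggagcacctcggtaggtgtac
Blvra held 1 match, on the minus strand from 49 bases upstream of the start, and the windows of the same 250 bases at the other start sites held none. Of all 32851 such windows 10.2% held a match, so 1 of 10 is near the background share. The core of the hypoxia response element (ACGTG, either strand), found in 16.6% of all windows, had no match in either window shown, and 1 each in the windows of a second Tfrc and a second Blvrb start. These are letter matches, with no binding data behind them.

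Heme breakdown was read by Hmox1, Blvra and Blvrb. Hmox1 had log2 values of 7.88, 8.91 and 9.61 on mTORi-HDL 1, 2 and 3 and of 8.64, 9.38 and 9.24 on untreated 1, 2 and 3. The lowest and the highest value were both in treated samples, with the untreated ones between them. The treated mean was 8.80 ± 0.87 and the untreated mean 9.08 ± 0.39 (SD, n = 3 each). The log2 fold change was -0.29 ± 0.47 (SE; limma, adjusted p = 0.912) and turned to 0.17 ± 0.33 without mTORi-HDL 1 (adjusted p = 0.966). The 95% interval ran from -1.38 to 0.81 over all arrays and from -0.62 to 0.96 without that array.

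Blvra encodes biliverdin reductase A, the enzyme that makes bilirubin from the biliverdin of heme breakdown. Its values were 5.13, 6.98 and 6.74 in treated samples and 7.13, 7.57 and 6.69 in untreated ones. mTORi-HDL 1 lay far below the other arrays, while treated samples 2 and 3 lay between untreated 3 and untreated 1. The means were 6.28 ± 1.003 and 7.13 ± 0.44 (SD, n = 3 each), and the log2 fold change was -0.85 ± 0.52 (SE; adjusted p = 0.890). Without mTORi-HDL 1 it was -0.27 ± 0.30 (adjusted p = 0.931). All 3 treated samples lay under the untreated mean, at offsets of -1.997, -0.15 and -0.39.

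Blvrb encodes biliverdin reductase B, a flavin reductase that acts on biliverdin mainly in the fetus. It was read at 5.82, 5.58 and 5.82 in treated and at 6.07, 6.16 and 5.23 in untreated samples. The treated values lay close together, inside the range of the untreated ones. Its log2 fold change was -0.08 ± 0.33 (SE; adjusted p = 0.965) and -0.12 ± 0.33 without mTORi-HDL 1 (adjusted p = 0.979). Unlike Blvra, Blvrb on mTORi-HDL 1 was level with the untreated mean, at an offset of 0.00.

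Fth1 encodes the heavy chain of ferritin, which oxidises iron for storage. It had values of 12.16, 12.20 and 12.35 in treated samples and of 11.96, 12.29 and 11.85 in untreated ones. These lie at the top of the arrays' range, above at least 99.8% of all genes on each array. The means were 12.24 ± 0.10 and 12.03 ± 0.23 (SD, n = 3 each). Untreated 2 lay above 2 of the treated samples, so the groups overlapped. The log2 fold change was 0.20 ± 0.26 (SE; adjusted p = 0.897) and 0.24 ± 0.24 without mTORi-HDL 1 (adjusted p = 0.917), with a 95% interval of -0.32 to 0.80. When each array was scaled to the same mean and SD, the log2 fold change of Fth1 was 1.02 (adjusted p = 0.856, within 0.813 to 0.9998 over its alternatives). The groups then no longer overlapped, as for 11.6% of all genes under that scaling. After quantile normalization the log2 fold change of Fth1 was 0.20, and with 1 array left out it was 0.11 to 0.33. The ferritin light chain shared its probe set with other genes and was not analysed here, and whether the Fth1 probes also read ferritin pseudogenes was not tested.

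Iron export was read by Slc40a1 and Cp. Slc40a1 encodes ferroportin, the only known cellular iron exporter of mammals. It had values of 4.44, 3.06 and 3.62 in treated and of 3.72, 2.64 and 2.98 in untreated samples. mTORi-HDL 1 was the highest, and treated samples 2 and 3 lay below untreated 1. The means were 3.71 ± 0.69 and 3.12 ± 0.55 (SD, n = 3 each), with a log2 fold change of 0.59 ± 0.44 (SE; adjusted p = 0.890) and of 0.23 ± 0.37 without mTORi-HDL 1 (adjusted p = 0.955). On the other 5 arrays Slc40a1 was dimmer than the median gene, whose value was 4.03 to 4.19 there and, with no detection call in the deposited values, whether it stood above background was not tested.

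Cp encodes ceruloplasmin, a copper ferroxidase that loads exported iron onto transferrin. Its values were 4.31, 4.04 and 3.59 in treated samples and 4.06, 3.36 and 3.70 in untreated ones. The ranges of the groups overlapped, with mTORi-HDL 1 again the highest and untreated 2 the lowest. The log2 fold change was 0.27 ± 0.32 (SE; adjusted p = 0.893) and 0.10 ± 0.29 without mTORi-HDL 1 (adjusted p = 0.980). Cp was dimmer than the median gene on every array.

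Tfrc encodes the transferrin receptor, which dividing and activated cells carry in large numbers. It was read at 3.11, 6.62 and 5.72 in treated and at 6.44, 6.87 and 6.71 in untreated samples. mTORi-HDL 1 and 3 lay below all untreated samples and mTORi-HDL 2 among them. The means were 5.15 ± 1.82 and 6.67 ± 0.22 (SD, n = 3 each). The log2 fold change of -1.52 ± 0.81 (SE; adjusted p = 0.890) was the largest of the 9 genes and was -0.50 ± 0.32 without mTORi-HDL 1 (adjusted p = 0.845; 95% interval -1.27 to 0.27). Without mTORi-HDL 2, Tfrc was at -2.26 with an unadjusted p of 0.0175, where 6.74% of all genes lay under 0.05, and its adjusted p was 0.690 (0.690 to 0.9998 over its alternatives). On mTORi-HDL 1 Tfrc had an offset of -3.56 from the untreated mean. All 1839 genes with an untreated mean of 6 to 7 had a median offset of -1.33 there, and 10% of them lay under -2.53.

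Markers of dividing cells and of T cells, both of which carry the transferrin receptor, were also lower in treated samples, and 0 of them passed an adjusted p of 0.05 (limma). Over all arrays 14 of 14 measured markers of dividing cells were lower in treated samples, and their mean level lay at 5.06 to 5.96 against 7.19 to 7.60 in untreated ones. Of 16 T cell markers 16 were lower, with mean levels of 6.65 to 8.24 against 9.03 to 9.40. At an unadjusted p under 0.05 there were 12 and 11 of these, respectively, where 4.64% of all genes lay. Without mTORi-HDL 1 all 14 and all 16 were still lower, with median log2 fold changes of -1.60 and -0.97. The T cell inhibitory receptor Ctla4 was read at 7.43, 7.65 and 7.57 in treated and 8.92, 9.32 and 8.86 in untreated samples, and Kif11, a mitotic motor, at 3.77, 4.37 and 5.00 against 7.25, 7.47 and 7.63. The part of these cells in the Tfrc values was not tested. In sorted cell RNA, fewer cells of a type and less RNA per cell cannot be told apart.

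Slc11a1 encodes NRAMP1, which moves iron and other divalent metals out of the phagosome of macrophages. Both mouse strains used here carry the form of this gene in which aspartate replaces a glycine, known to impair its protein. It had values of 5.18, 5.80 and 7.12 in treated samples and of 5.88, 6.18 and 5.30 in untreated ones. The lowest and the highest value were both in treated samples. The means were 6.04 ± 0.99 and 5.79 ± 0.45 (SD, n = 3 each), with a log2 fold change of 0.25 ± 0.52 (SE; adjusted p = 0.928). Without mTORi-HDL 1 it was 0.68 ± 0.45 (adjusted p = 0.846; 95% interval -0.39 to 1.74), and without mTORi-HDL 3 it was -0.29 (adjusted p = 0.810; 0.752 to 0.9998 over its alternatives). The sign thus rested on mTORi-HDL 3, the array with the highest value.

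Slc11a2 encodes DMT1, the related transporter that carries iron out of endosomes after transferrin uptake. It was read at 4.90, 5.28 and 5.72 in treated and at 5.62, 5.43 and 4.95 in untreated samples. Each treated value had an untreated one near it. The log2 fold change was -0.04 ± 0.33 (SE; adjusted p = 0.985), the smallest of the 9 genes, and 0.16 ± 0.29 without mTORi-HDL 1 (adjusted p = 0.961).

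Macrophage markers were read in every sample. Over all arrays 16 of 18 measured markers were higher, and 18 of 18 without mTORi-HDL 1, with median log2 fold changes of 0.51 and 1.11 and 0 past an adjusted p of 0.05 in either fit (limma). Their mean level was 7.35, 8.45 and 8.99 on mTORi-HDL 1, 2 and 3 and 7.74, 7.74 and 7.29 on untreated 1, 2 and 3. The mean level of the T cell markers was above this on each untreated array, at 9.03 to 9.40. On each treated array it was below, at 6.65 to 8.24. The values of the 9 genes are thus those of the sorted samples, and the share of T cells in them was not tested. The marker lists rest on different probe sets, so their levels do not give that share. Cd68, a lysosomal glycoprotein of macrophages, was read at 9.47, 10.87 and 10.87 against 9.60, 9.70 and 8.78. Csf1r, the receptor for the macrophage growth factor, was at 5.004 on mTORi-HDL 1 and at 7.54 to 9.08 on the other arrays. Adgre1, which encodes the F4/80 antigen, was at 4.93 on mTORi-HDL 1 and at 6.05 to 8.72 on the other arrays. The markers with the smallest unadjusted p over all arrays, Fcgr1, C1qc and C1qb, were higher on mTORi-HDL 1 than on any untreated array. They were read at 8.13, 6.69 and 7.95 there, against at most 7.23, 5.95 and 7.73 on untreated arrays. The p that picked them includes mTORi-HDL 1, so their level there follows in part from the selection. C1qa, of the same complex, was at 6.33 on mTORi-HDL 1 and at 6.51 to 7.81 on untreated arrays. Of the 9 genes 4 (Hmox1, Fth1, Slc11a1 and Slc11a2) were highest on mTORi-HDL 3, the array with the highest macrophage marker level, 3 on untreated 2 and 2 on mTORi-HDL 1. The share of all genes that were highest on mTORi-HDL 3 was not counted. Dependence of the 9 genes on the macrophage marker level was not tested.

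Markers of other cells that a sorted graft sample could hold were counted over all arrays. Of all 22180 genes 12901 were higher in treated samples over all arrays, and 10333 without mTORi-HDL 1. Of 12 fibroblast markers 10 were higher in treated samples, with mean levels of 5.26 to 5.79 against 4.76 to 4.92. At an unadjusted p under 0.05 (4.64% of all genes) there were 3. Among them was Dcn, a matrix proteoglycan, at a log2 fold change of 2.22. Of 11 endothelial markers 9 were higher (4.35 to 4.42 against 3.69 to 4.35), with 2 at that p, and Fabp4, a fatty acid binding protein also made by macrophages, was at 2.23. Of 12 cardiomyocyte markers 11 were higher (4.57 to 4.97 against 4.08 to 4.72), with 2 at that p. Neutrophil markers were higher for 10 of 13 (4.21 to 5.15 against 4.09 to 4.80) and hepatocyte markers for 5 of 6 (3.59 to 4.15 against 3.22 to 3.72), with 0 at that p in both. When mTORi-HDL 1 was left out, endothelial markers were split into 5 higher and 6 lower and neutrophil markers into 6 and 7. Fibroblast markers were then higher for 10 of 12, cardiomyocyte markers for 8 of 12 and hepatocyte markers for 4 of 6. In neither fit did a gene of these lists pass an adjusted p of 0.05, and their part in the values of the 9 genes was not tested.

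**Figure D2:**
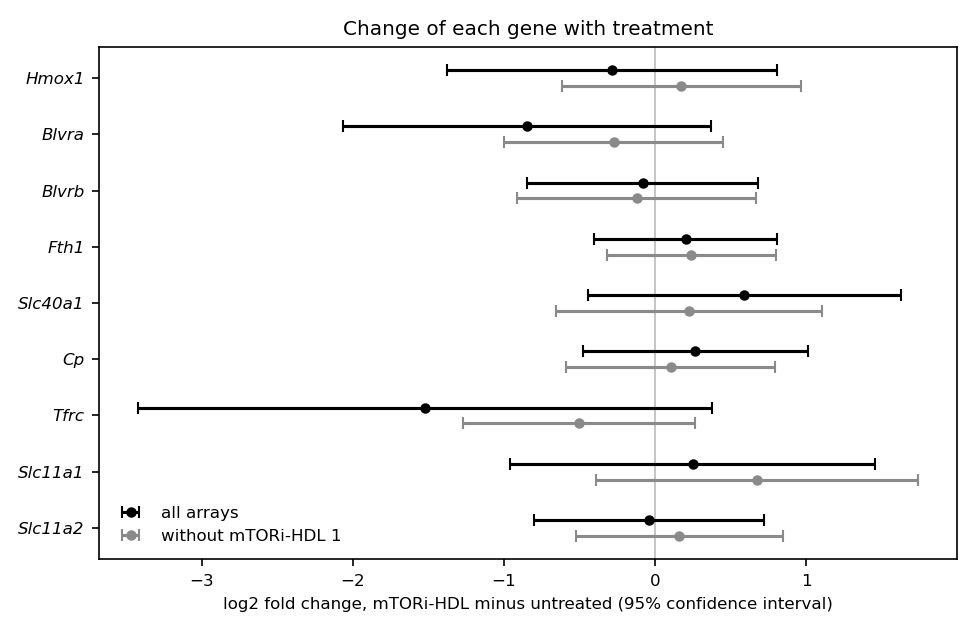
Log2 fold change (mTORi-HDL minus untreated) of each gene with its 95% confidence interval from limma, over all arrays in black and without mTORi-HDL 1 in grey. Every interval holds 0, and the widest is that of Tfrc over all arrays, from -3.42 to 0.38.

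The offset of each treated sample from the untreated mean shows how far mTORi-HDL 1 set the averages. On that array the offsets of the 9 genes ran from -3.56 for Tfrc, -1.997 for Blvra and -1.20 for Hmox1 up to 0.60 for Cp and 1.32 for Slc40a1. On mTORi-HDL 2 they lay between -0.24 for Blvrb and 0.33 for Cp. On mTORi-HDL 3 they lay between -0.95 for Tfrc and 1.34 for Slc11a1. Genes over the whole array with an untreated mean of 7 to 8, the range that holds Blvra, had a median offset of -2.13 on mTORi-HDL 1, close to the value of Blvra there. Hmox1 lay above the median offset of -1.78 for an untreated mean of 9 to 10, and Slc40a1 above the 0.57 for 3 to 4.

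**Figure D3:**
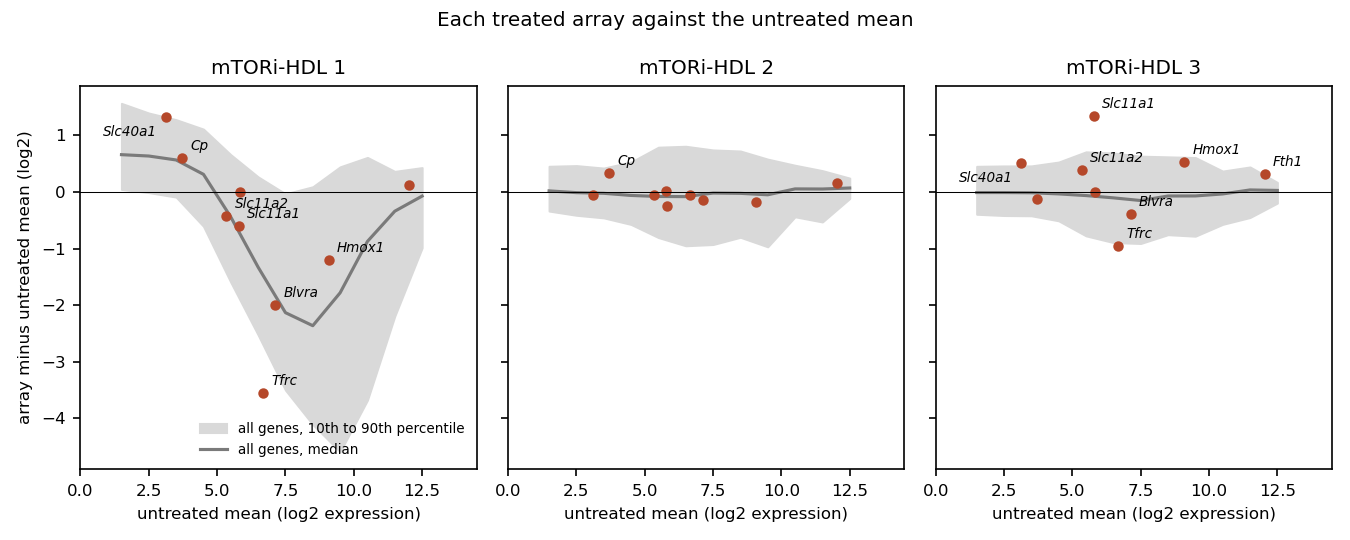
Offset of each treated array from the untreated mean (log2 units) against the untreated mean, for the 9 genes (red points, named where the offset is 0.3 or more in size) and for all genes (grey line, median; grey band, 10th to 90th percentile, in bins of 1 log2 unit). On mTORi-HDL 1 the band of all genes bends down to a median of -2.37 at an untreated mean of 8 to 9, and Tfrc lies under it.

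Genes elsewhere on the array were picked for the most similar course over the same 6 arrays, so their likeness follows from the selection. By the root mean square difference of values centred on their own mean, among 11090 genes brighter than the median, Cert1 and Srpk1 were closest to Tfrc at 0.05 and 0.08, against 1.30 for Tfrc around its own mean. Scamp2 and Gm5523 were closest to Hmox1 (0.11 and 0.12), Gpr20 and Gm7138 to Slc40a1 (0.13 each), and Wnt4 and Fam43b to Cp (0.08 each). Cert1, picked for its likeness to Tfrc, was read at 3.65 on mTORi-HDL 1 and at 6.40 to 7.45 on the others. A link between these genes was not tested.

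Other genes of iron and heme metabolism were grouped in 8 lists, of which 93 of 102 genes were measured. Over all arrays 57 were higher and 36 lower in treated samples, with a median log2 fold change of 0.06, against 0.08 over all genes. Of all 22180 genes 12901 were higher over all arrays, and 10333 without mTORi-HDL 1. In limma's test the adjusted p was under 0.05 for 0 of the 93. The unadjusted p was under 0.05 for 4 (4.3%), a share near the 4.64% of all genes. The groups were apart for 11 (11.8%), near the 10.9% of all genes. Without mTORi-HDL 1 the corresponding counts were 0, 6 (6.45%) and 26 (28.0%), against 0%, 6.97% and 22.3% of all genes. Urod and Slc25a28 were in both counts at an unadjusted p under 0.05.

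Among the 7 measured genes of heme synthesis, 4 were lower over all arrays (median -0.09), and 5 when mTORi-HDL 1 was left out (median -0.30). Urod, uroporphyrinogen decarboxylase, was read at 5.35, 5.52 and 5.65 in treated and at 6.83, 6.00 and 6.69 in untreated samples, so all treated values lay below all untreated ones. Its log2 fold change was -1.002 ± 0.31 (SE; unadjusted p = 0.0128, adjusted p = 0.890) and -0.92 ± 0.30 without mTORi-HDL 1 (adjusted p = 0.556). Cpox, the next enzyme of the pathway, and Alad, an early one, had log2 fold changes of -0.89 and -0.76 and unadjusted p of 0.0814 and 0.0947. With mTORi-HDL 1 left out they were at -0.83 and -0.38. Erythroid markers, which would accompany red cell precursors, were higher for 11 of 12 over all arrays and 7 of 12 without mTORi-HDL 1, with 0 at an unadjusted p under 0.05 in either fit.

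The 17 measured genes of mitochondrial iron and iron-sulfur clusters had a median log2 fold change of -0.24 with 10 lower, and of -0.11 with 9 lower when mTORi-HDL 1 was left out. Slc25a28, mitoferrin-2, which brings iron into mitochondria, was read at 4.60, 5.46 and 6.44 in treated and at 6.90, 6.74 and 8.35 in untreated samples. The groups did not overlap. Its log2 fold change was -1.83 ± 0.59 (SE; unadjusted p = 0.0163, adjusted p = 0.890) and -1.38 ± 0.55 without mTORi-HDL 1 (adjusted p = 0.686). Hscb, a chaperone of cluster transfer, was at -1.36, and Abcb10, an inner membrane transporter linked to heme synthesis, at -0.42, with unadjusted p of 0.0546 and 0.139. With mTORi-HDL 1 left out they were at -0.66 and -0.38. Glrx5, a glutaredoxin that passes on clusters and was named after its values were seen, had a log2 fold change of -0.95 over all arrays and of -1.50 ± 0.52 (SE) without mTORi-HDL 1 (unadjusted p = 0.0254, adjusted p = 0.604).

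Iron uptake and reduction genes had 12 of 13 members higher (median 0.23), or 9 when mTORi-HDL 1 was left out (median 0.12). In either fit 0 had an unadjusted p under 0.05. Their mean level in untreated samples was 3.92 to 4.07. All genes with an untreated mean of 3 to 4 had a median offset of 0.57 on mTORi-HDL 1. The smallest p values of this list were those of Steap3, the ferrireductase of endosomes (0.42), Snx3, a sorting protein for the transferrin receptor (-0.79), and Mcoln1, a lysosomal cation channel (0.29), the numbers being log2 fold changes. Without mTORi-HDL 1 they were 0.15, -0.01 and 0.29. Of 12 genes of heme uptake and transport 9 were higher over all arrays and 6 without mTORi-HDL 1. Abcg2, a porphyrin exporter, was read at 3.87, 4.404 and 3.70 in treated and at 3.64, 2.78 and 3.49 in untreated samples, apart by a log2 fold change of 0.69 (unadjusted p = 0.0814). Hebp1, a heme-binding protein, and Pgrmc1, a heme-binding membrane protein, had log2 fold changes of 0.44 and -1.08, or 0.45 and -0.38 without mTORi-HDL 1. Lrp1, the receptor for heme bound to hemopexin, named after its values were seen, was at 0.55 over all arrays and at 0.74 ± 0.29 (SE) without mTORi-HDL 1 (unadjusted p = 0.0394, adjusted p = 0.686).

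Ncoa4, the receptor that delivers ferritin to the lysosome for breakdown, was read at 4.31, 5.28 and 4.68 in treated and at 3.91, 4.29 and 4.51 in untreated samples. Its log2 fold change was 0.52 ± 0.34 (SE; adjusted p = 0.890) and 0.75 ± 0.29 without mTORi-HDL 1 (unadjusted p = 0.0395, adjusted p = 0.686). The 6 storage genes had median log2 fold changes of -0.09 over all arrays and 0.32 without mTORi-HDL 1. In this list Pcbp2, an iron chaperone, and Nup98, a nuclear pore protein, had log2 fold changes of -0.26 and -0.64, or -0.05 and 0.41 without mTORi-HDL 1. Of 6 genes linked to export, Rnf217, a ubiquitin ligase reported to degrade ferroportin, was read at 5.64, 4.75 and 5.32 in treated and at 4.43, 4.201 and 4.65 in untreated samples. The groups did not overlap, and the log2 fold change was 0.81 ± 0.32 (SE; unadjusted p = 0.0364, adjusted p = 0.890), or 0.61 without mTORi-HDL 1. Hamp2, a hepcidin gene, and Mon1a, a trafficking protein of ferroportin, were at 0.57 and -0.22, or 0.05 and -0.24 without that array. Heph, hephaestin, a ferroxidase related to ceruloplasmin that was named after its values were seen, was at -0.17 over all arrays and at -0.54 ± 0.21 (SE) without mTORi-HDL 1 (unadjusted p = 0.0361, adjusted p = 0.677).

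Iron sensing and hepcidin signalling genes had 12 of 15 members higher, or 11 when mTORi-HDL 1 was left out, with 0 at an unadjusted p under 0.05 in either fit. Aco1, iron regulatory protein 1, was at -0.51 (log2 fold change; -0.55 without mTORi-HDL 1), and the BMP response genes Id1 and Smad7 at 0.73 and 0.33, or 0.08 and 0.38 without mTORi-HDL 1. NRF2 drives and BACH1 represses Hmox1, Fth1 and Slc40a1, and the 17 measured genes of this axis were split into 9 higher and 8 lower, with medians of 0.02 and, without mTORi-HDL 1, of -0.02. Gsr, glutathione reductase, was read at 4.57, 5.32 and 6.41 in treated and at 6.41, 6.32 and 7.15 in untreated samples, with a log2 fold change of -1.20 ± 0.50 (SE; unadjusted p = 0.0447, adjusted p = 0.890). Without mTORi-HDL 1 Gsr was at -0.76 (unadjusted p = 0.105). Me1, malic enzyme, and Txnrd1, thioredoxin reductase, had log2 fold changes of 0.63 and -1.12, or 0.34 and -0.20 without it.

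**Figure D4:**
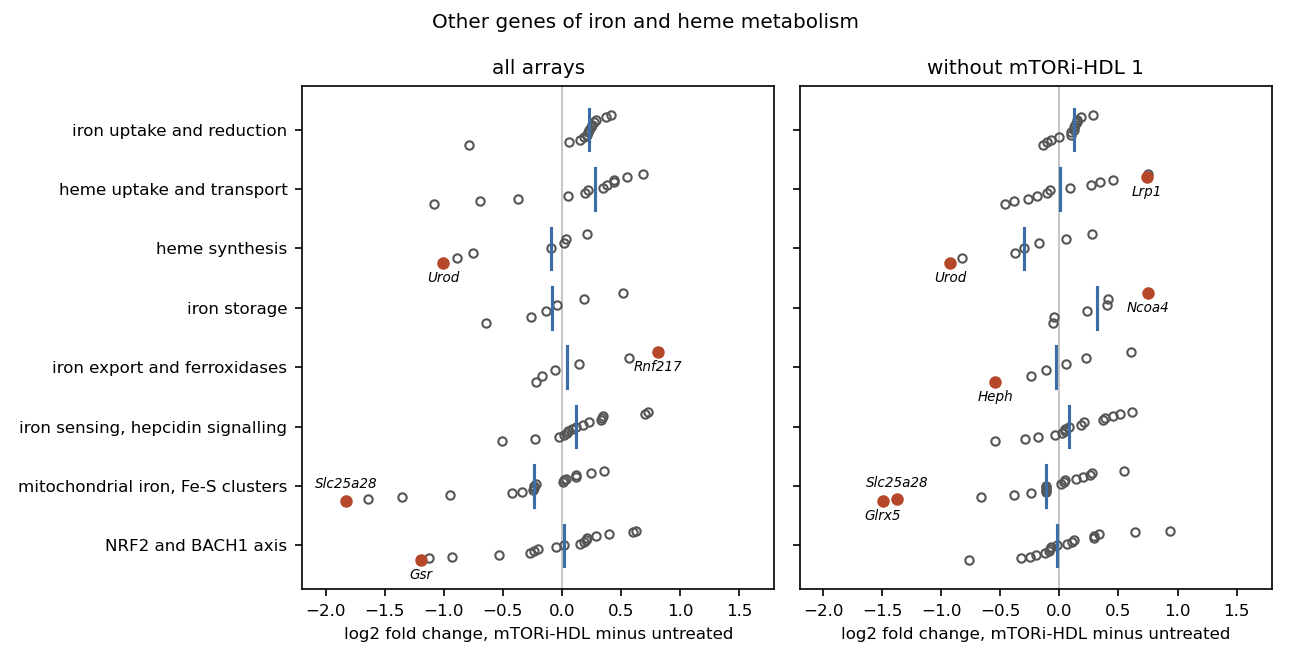
Log2 fold changes (mTORi-HDL minus untreated) of the 93 other iron and heme genes by list, over all arrays and without mTORi-HDL 1; blue bars are list medians and filled, named points have an unadjusted p under 0.05. The list medians lie between -0.24 and 0.28 over all arrays, and 4 and 6 genes are filled.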

How the data were processed

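Per the submitters' processing notes, the authors used Affymetrix Expression Console and RMA, which covers background correction, quantile normalization and the joining of probes into probe sets, and per the labels' protocols 15 ng of RNA a sample was amplified. That the deposited values are log2 was read from their range. Versions, genome build and filters are not given in the sources used here. The table held 41345 probe sets on 6 arrays, with 0 missing values. Of these, 23521 had 1 gene symbol in the platform annotation, and the brightest stood for each of the 22180 genes.

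The main test was limma 3.58.1 under R 4.3.3, with lmFit and eBayes fitted to all 22180 genes on group alone, two-sided, and Benjamini-Hochberg adjustment over them. The procedure was tested on simulated data. How often it finds changes of the sizes seen in the 9 genes is not given here, so that test does not bear on their results. The precision is limited by how few arrays each group has. Other scalings, filters, variance models and left-out arrays were tried. The 9 genes and the 17 lists (8 of pathways, the rest of cell types) were chosen with earlier results of these data known. Of 228 list entries 207 were measured. From each pathway list the 3 genes with the smallest p are named. From cell type lists up to 3 such genes, defining markers or both are named. For Hmox1, Slc40a1, Tfrc and Cp the 2 genes of most similar course are named.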

Additional observations from a re-analysis of the deposited data

How the results depend on the processing

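Of the 9 iron and heme genes, 0 had an adjusted p under 0.05 in any alternative run, and 0 under 0.1 over all arrays. Over all genes the count past 0.05 stayed 0 except with array weights, where it was 1 (H2bc12, a histone gene). Values with the opposite sign were found in 16 of 124 recalculations, of Hmox1, Blvrb, Slc11a1 and Slc11a2 alone. After quantile normalization Hmox1 was at 0.034, Blvrb at 0.31 and Slc11a2 at 0.031. With each array scaled to the same mean and SD they were at 0.10, 0.078 and 0.017, and with array weights Hmox1 was at 0.17 and Slc11a2 at 0.19. With 1 array left out, Hmox1 ranged from -0.69 to 0.17, Blvrb from -0.38 to 0.090, Slc11a1 from -0.29 to 0.68 and Slc11a2 from -0.25 to 0.16. Then 0 to 1 of the 9 genes had an unadjusted p under 0.05 (Tfrc, without mTORi-HDL 2) and 0 to 2 had groups that did not overlap. Over all genes these shares were 2.77% to 6.97% and 17.9% to 22.8%, so 2 of 9 is near the background. The 2 were Tfrc and Slc40a1 without untreated 1 and Blvra and Blvrb without untreated 3, and it was 1 without mTORi-HDL 2 (Tfrc) and without untreated 2 (Fth1). Scaling to the same mean and SD set apart 1, Fth1 (11.6% of all genes). The cause of these shifts was not tested. The labels do not say whether same-numbered samples of the 2 groups were paired. The deviations of same-numbered samples correlated at 0.14, 0.14 and -0.02 across genes. Of the 6 arrays 4 correlated best with their own number, which does not settle it. With the replicate block 0 of the 9 genes passed and Tfrc was at -1.52 (adjusted p = 0.847). The filter on dim genes left out Slc40a1 and Cp. Leaving mTORi-HDL 1 out of the pathway counts was chosen after seeing the data. Slc40a1 and Cp were near or under the median gene, and how far background signal limits their values was not tested.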
